A study of Mus musculus with 20 samples.

Results

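The AP-2 transcription factor family of the mouse has 5 genes, Tfap2a, Tfap2b, Tfap2c, Tfap2d and Tfap2e, and all 5 were found by symbol among the 21887 protein-coding genes of the numbered chromosomes, X and Y. They were described by the peaks of chromatin immunoprecipitation with sequencing (ChIP-seq) in Comma-Dβ, a line of mammary epithelial cells from the mouse that was used at passage 28. For each gene the peaks of the histone marks H3K4me3, H3K27ac and H3K27me3 over the gene and within 1 kb of its ends were taken, together with H3K27ac peaks and binding sites of HEB, the E protein encoded by Tcf12, within 100 kb. The family was chosen by peak values of these same lists, among them the width of the H3K4me3 peak at Tfap2a, so the values are given as a description and no test was made on them.

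The study had 20 samples in 5 groups of 4 biological replicates, which were HEB, H3K4me3, H3K27ac and H3K27me3 immunoprecipitations and input chromatin. All groups were the same cell line, without a treatment named in the labels, grown in DMEM/F12 that held 5 ng/mL EGF (epidermal growth factor), insulin at 0.125 IU/mL, 10 mM of the buffer HEPES and 2% serum. One peak list per antibody was deposited, in mm10 coordinates. Peaks have a position and, for the marks, a fold enrichment of ChIP over control, which belongs to the authors' lists. The lists carry no column per replicate and read depth per sample is unknown, so no value has a replicate error.

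AP-2 proteins bind GC-rich palindromic DNA as dimers and can activate or repress transcription. In the mouse Tfap2a is known for its roles in the neural crest, the face and the epidermis, Tfap2b for the kidney and neural crest derivatives, Tfap2c for trophoblast and germ cells, Tfap2d for the midbrain and retina, and Tfap2e for the olfactory system. In human breast cells the orthologues of Tfap2a and Tfap2c are known as regulators of luminal genes such as those for the estrogen receptor and ERBB2. H3K4me3 lies at promoters, H3K27ac at active promoters and enhancers, and H3K27me3 is the product of a Polycomb repressive complex and marks silenced genes.

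The 3 mark lists held 17162 H3K4me3, 61496 H3K27ac and 114660 H3K27me3 peaks, and the HEB list held 956 sites. All 7 mammary epithelial markers examined, among them the keratin genes Krt8 and Krt14, Epcam and Trp63, carried H3K4me3 and H3K27ac. Of the 7, 4 also carried H3K27me3, with widest peaks from 0.328 kb at Krt14 to 16.8 kb at Krt5. The 3 fibroblast markers Pdgfra, Col1a1 and Dcn also carried H3K4me3 and H3K27ac, and Pdgfra carried H3K27me3 as well. The T cell gene Cd3e and the neural crest genes Sox10 and Foxd3 carried H3K27me3 alone, and the immune gene Ptprc carried all 3 marks, with an H3K4me3 peak of 0.379 kb. Both active marks were found at 1 of 3 endothelial markers (Pecam1), 1 of 2 neuronal markers (Syt1) and none of the 3 adipocyte markers. For comparison, 44.7% of all protein-coding genes carried both active marks without H3K27me3 and 11.5% carried all 3 marks. H3K27me3 was found at 37.5% of them, and at 17.9% without the active marks.

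The 5 genes fell into 3 chromatin states. Tfap2a and Tfap2b carried H3K4me3 and H3K27ac over long stretches and no H3K27me3. Tfap2c carried all 3 marks, in the same place within the gene. Tfap2d and Tfap2e carried H3K27me3 alone. Each mark was thus present at 3 of the 5 genes, beside 61.2% of all protein-coding genes for H3K4me3, 63.2% for H3K27ac and 37.5% for H3K27me3. Both active marks without H3K27me3 were found at 44.7% of protein-coding genes, all 3 marks at 11.5% and H3K27me3 without the active marks at 17.9%. These shares count any peak in the window, without regard to its width or to overlap between marks. They are thus not the shares of genes with long active stretches or with 3 marks in the same place.

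**Figure D1:**
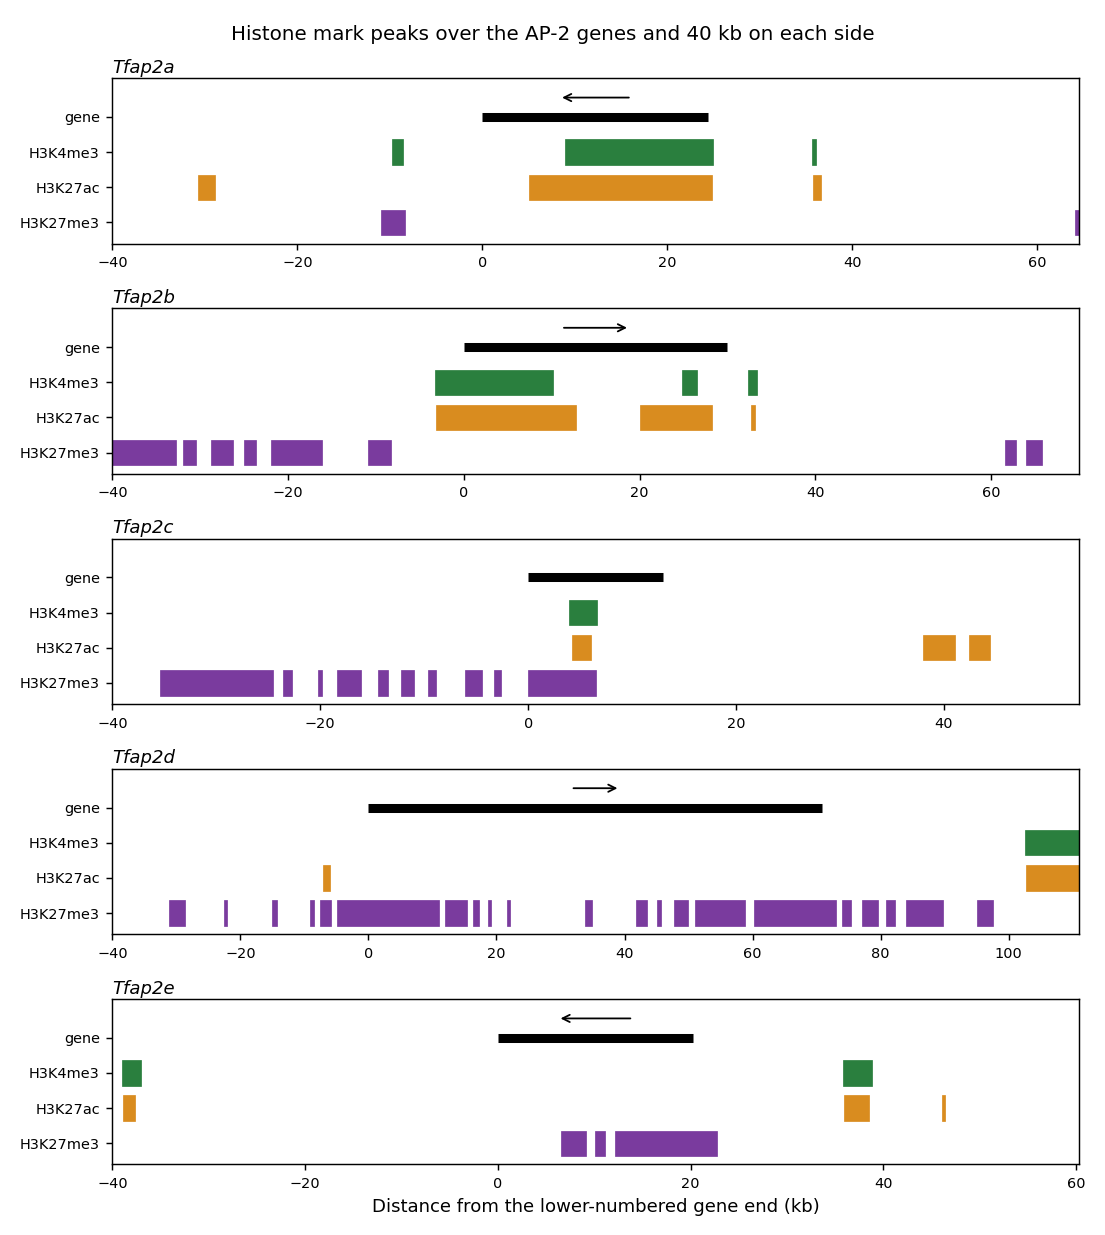
Peaks of the 3 histone marks over each AP-2 gene and 40 kb on each side, in kb from the gene end with the lower position. Black bars are the genes, arrows give the direction of transcription where a start was listed, and coloured boxes are peaks drawn to scale; Tfap2a and Tfap2b lie under H3K4me3 and H3K27ac, Tfap2d and Tfap2e under H3K27me3, and Tfap2c under all 3.

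The promoters of 4 of the 5 genes, all but Tfap2c, were matched by symbol in RefSeq tables of GRCm38.p6, the assembly mm10 is based on. They gave 7 windows from 250 bases before to 50 after a transcription start. Of these, 5 are shown here. Both listed starts of Tfap2a and the listed start of Tfap2b lie in H3K4me3 and H3K27ac peaks. These starts lie inside the annotated genes rather than at their 5′ ends. The upstream Tfap2a start is at chr13:40734920, and the gene reaches to 40738238. The Tfap2b start is at chr1:19212054, and the gene begins at 19208908. The windows therefore do not cover the 5′ ends of these genes. The downstream start of Tfap2d and the start of Tfap2e lie in H3K27me3 peaks. The other Tfap2d starts, also in the H3K27me3 peak, lie up to 1111 bp upstream. Their windows overlap each other almost entirely and are not shown. Capitals mark CpG dinucleotides, and each sequence runs 5′ to 3′ on the strand of its gene. Their positions are chr13:40734871-40735170 and chr13:40733746-40734045 on the minus strand for the upstream and downstream starts of Tfap2a, chr1:19211804-19212103 on the plus strand for Tfap2b, chr1:19103883-19104182 on the plus strand for Tfap2d, and chr4:126736220-126736519 on the minus strand for Tfap2e.
Tfap2a upstream start: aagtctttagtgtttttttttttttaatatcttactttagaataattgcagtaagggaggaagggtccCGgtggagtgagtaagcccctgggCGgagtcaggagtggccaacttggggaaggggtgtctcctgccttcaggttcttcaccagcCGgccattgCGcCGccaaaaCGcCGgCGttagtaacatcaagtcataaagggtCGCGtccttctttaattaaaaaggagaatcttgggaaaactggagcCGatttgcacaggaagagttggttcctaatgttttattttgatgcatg
Tfap2a downstream start: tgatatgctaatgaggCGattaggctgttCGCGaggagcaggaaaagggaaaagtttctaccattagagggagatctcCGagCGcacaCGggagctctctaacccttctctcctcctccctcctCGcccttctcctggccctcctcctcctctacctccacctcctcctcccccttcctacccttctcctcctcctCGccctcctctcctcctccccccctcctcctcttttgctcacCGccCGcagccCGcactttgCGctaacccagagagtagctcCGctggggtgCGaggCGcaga
Tfap2b: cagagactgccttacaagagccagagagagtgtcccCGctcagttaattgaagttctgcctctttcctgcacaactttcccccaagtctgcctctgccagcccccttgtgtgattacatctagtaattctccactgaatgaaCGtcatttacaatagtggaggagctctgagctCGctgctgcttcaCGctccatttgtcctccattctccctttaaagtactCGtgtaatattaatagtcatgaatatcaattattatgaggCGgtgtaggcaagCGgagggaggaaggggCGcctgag
Tfap2d downstream start: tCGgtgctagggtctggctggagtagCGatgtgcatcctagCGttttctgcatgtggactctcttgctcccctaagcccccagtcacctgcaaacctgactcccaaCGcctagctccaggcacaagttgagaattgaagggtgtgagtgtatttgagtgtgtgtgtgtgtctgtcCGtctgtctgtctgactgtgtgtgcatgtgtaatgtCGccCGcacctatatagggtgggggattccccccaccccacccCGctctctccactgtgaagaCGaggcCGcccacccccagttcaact
Tfap2e: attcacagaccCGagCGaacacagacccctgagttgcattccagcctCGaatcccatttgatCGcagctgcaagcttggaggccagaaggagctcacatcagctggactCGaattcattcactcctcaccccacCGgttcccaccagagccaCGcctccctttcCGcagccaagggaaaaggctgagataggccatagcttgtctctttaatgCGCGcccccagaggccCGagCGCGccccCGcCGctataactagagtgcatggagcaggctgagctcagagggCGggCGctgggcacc

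The number of CpG dinucleotides did not sort these windows by mark. The Tfap2e window, under H3K27me3, held 17 CpG and 60.3% G and C, the most CpG of the 7 windows. The Tfap2b window, under the active marks, held 8 CpG and 48.3% G and C. The Tfap2a windows held 11 CpG at the upstream start and 15 at the downstream start, and the Tfap2d windows held 5, 5 and 10. Over all 32851 listed promoters, the 13257 that overlapped an H3K4me3 peak had a median of 22 CpG (interquartile range 14 to 30), and the 5930 that overlapped H3K27me3 without H3K4me3 had a median of 4 (2 to 9). The windows at the listed start of Tfap2b and the upstream listed start of Tfap2a therefore stood below the lower quartile of H3K4me3 promoters. The downstream start of Tfap2a stood within the quartiles. None of these windows covers the 5′ end of its gene. Tfap2e and the downstream start of Tfap2d stood above the upper quartile of promoters with H3K27me3 and no H3K4me3, and the other Tfap2d starts within the quartiles.

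The palindrome GCCNNNGGC, a core of the AP-2 binding motif that reads the same on both strands, had no match in any of the 7 windows, beside 16.6% of all listed promoters. The E-box CANNTG, the general motif of E proteins and likewise the same on both strands, had 3 matches at Tfap2e, 3 at the downstream start of Tfap2d, 1 at Tfap2b and none at Tfap2a, and 72.3% of all listed promoters held at least 1. Of the Tfap2e matches, 2 were CAGCTG, which 16.3% of listed promoters held. These matches are counts of letters in short windows.

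Tfap2a, which lies at chr13:40713802-40738238 on the minus strand, had 1 peak of each active mark, and both lay over the upstream end and most of the gene body. Its H3K4me3 peak (chr13:40722684-40738698) was 16.0 kb wide, with a fold enrichment of 17.3 and a −log10 q of 285. Its H3K27ac peak (chr13:40718831-40738582) was 19.8 kb wide, with a fold of 8.62 and a −log10 q of 74.6. The peaks shared 15.9 kb, which was 99.3% of the H3K4me3 peak and 80.5% of the H3K27ac peak. They ended 116 bp apart upstream of the gene, and H3K27ac reached 3853 bp further into the gene body than H3K4me3.

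Both listed Tfap2a starts lay inside this stretch. H3K4me3 reached 3.78 kb upstream and 12.2 kb downstream of the upstream start, and H3K27ac reached 3.66 kb upstream and 16.1 kb downstream of it. H3K4me3 lay over 60.6% of the gene and 1 kb beyond its ends, and H3K27ac over 74.7%. The long noncoding RNA gene Gm26688, also named Tfap2a-as1, lies within Tfap2a, and both peaks overlapped it. Which of the genes the marks belong to cannot be told apart from the lists.

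Tfap2b (chr1:19208908-19238845, plus strand) was the other gene with broad active marks. Its main H3K4me3 peak (chr1:19205563-19218995) was 13.4 kb wide with a fold of 14.99, and its main H3K27ac peak (chr1:19205729-19221716) was 16.0 kb wide with a fold of 11.1. The listed start lay near the middle of the H3K4me3 peak, which reached 6.49 kb upstream and 6.94 kb downstream of it. H3K27ac reached 6.33 kb upstream and 9.66 kb downstream.

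Tfap2b also had active marks near its downstream end. An H3K27ac peak of 8.27 kb with a fold of 6.20 (chr1:19228893-19237164) lay over the last part of the gene, and inside it was an H3K4me3 peak of 1.72 kb with a fold of 2.38 and a −log10 q of 4.74. A further H3K4me3 peak of 1.02 kb with a fold of 7.73 lay 2.34 kb downstream of the gene, outside the window of 1 kb. In all, H3K4me3 covered 40.1% of the Tfap2b window and H3K27ac 69.1%.

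**Figure D2:**
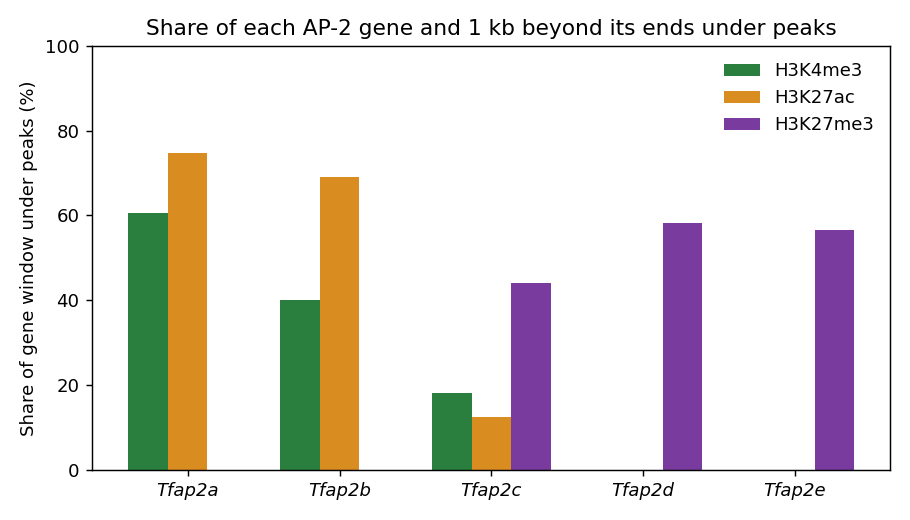
Share of each AP-2 gene and 1 kb beyond its ends that lay under peaks of each mark, in percent. Bars are single values from 1 list per mark without replicate error; H3K27ac covers 74.7% of Tfap2a and 69.1% of Tfap2b, and H3K27me3 58.3% of Tfap2d and 56.6% of Tfap2e.

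By width, the H3K4me3 peak of Tfap2a ranked 4 of 17162 and that of Tfap2b ranked 7. The width at Tfap2a is what drew attention to the family, and the ranks are given as a description. The peaks just wider than that of Tfap2a lay at Brinp3 (16.6 kb), at Gata3, a luminal transcription factor gene (21.7 kb), and on chromosome 15 away from any protein-coding gene (24.4 kb). Those just narrower lay at Zfp503 (14.1 kb) and Tnrc18 (13.7 kb), followed by Tfap2b and then Irx2 (13.0 kb) and Tsc22d2 (13.0 kb). A peak of 10 kb or more, a size set after the values were seen, was found at 2 of the 5 AP-2 genes, beside 0.101% of all protein-coding genes (22 genes).

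The Tfap2a and Tfap2b H3K4me3 peaks had folds of 17.3 and 14.99, higher than 60.6% and 54.9% of the list, whose median fold was 12.9. Their H3K27ac peaks stood high on both measures, at ranks 96 and 185 of 61496 by width, with folds higher than 98.6% and 99.7% of the list, whose median fold was 2.39. An H3K27ac peak of 15 kb or more, a size set in the same way, lay at Tfap2a and Tfap2b and at 1.09% of all protein-coding genes.

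**Figure D3:**
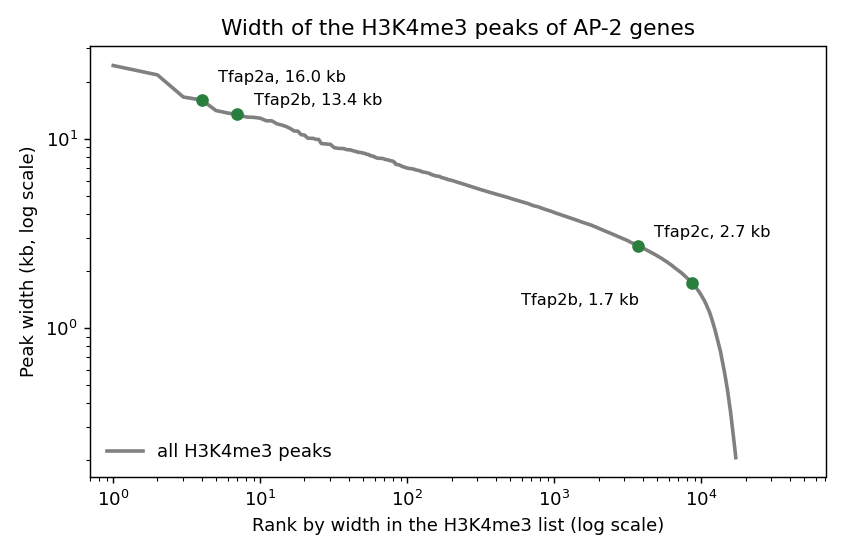
Width in kb of every H3K4me3 peak against its rank by width, both on log scales, with the 4 H3K4me3 peaks over AP-2 genes as points. The points of Tfap2a (16.0 kb) and the main Tfap2b peak (13.4 kb) lie among the 10 widest of 17162 peaks, and Tfap2c lies at 2.7 kb.

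Tfap2c (chr2:172545678-172558622) had active marks narrower than the main peaks of Tfap2a and Tfap2b, and they lay mostly inside an H3K27me3 peak. Beside the whole lists, the H3K4me3 peak of Tfap2c was wider than 78.4% of peaks and its H3K27ac peak wider than 64.5%. Its H3K4me3 peak (chr2:172549610-172552328) was 2.72 kb wide with a fold of 10.8, below the list's median of 12.9, and ranked 3700 by width. Its H3K27ac peak (chr2:172549876-172551721) was 1.85 kb wide, with a fold of 2.84 and a −log10 q of 7.08. Its H3K27me3 peak (chr2:172545638-172552211) was 6.57 kb wide with a fold of 2.52, higher than 97.5% of the H3K27me3 list. H3K27me3 covered 95.7% of the H3K4me3 peak and all of the H3K27ac peak.

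The active marks of Tfap2c lay within the gene, 3.93 kb from the end with the lower position. No H3K4me3 or H3K27ac peak lay within 1 kb of either end of Tfap2c, and counted at gene ends alone it would carry H3K27me3 only. No transcription start was listed for Tfap2c, so the marks at its ends cannot be read as those of its promoter. On the lower side H3K27me3 went on in 8 peaks of 336 to 2303 bp, followed by a peak of 10.9 kb that lay 24.5 kb from the gene. On the higher side the next H3K27me3 peak was 152.3 kb away. The lists do not show whether the marks lay on the same DNA molecules or in different cells of the culture.

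Tfap2d (chr1:19103022-19173948, plus strand) was covered by H3K27me3 in 11 peaks, which together lay over 58.3% of its window. The strongest and widest was at the start of the gene (chr1:19098098-19114055), with 16.0 kb, a fold of 2.73 and a −log10 q of 11.6, and all 3 listed starts lay inside it. The other 10 peaks were 0.503 to 12.8 kb wide with folds of 1.55 to 1.90 and −log10 q values of 1.303 to 3.454. Among these was a peak of 12.8 kb over the downstream end of the gene. No H3K4me3 or H3K27ac peak lay over Tfap2d.

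Tfap2e (chr4:126716003-126736269, minus strand) had 3 H3K27me3 peaks over 56.6% of its window. The peak at the start (chr4:126728182-126738737) was 10.6 kb wide, reached 2.47 kb upstream and 8.09 kb downstream of the start, and had a fold of 3.93 with a −log10 q of 29.6. By fold it ranked 111 of 114660 H3K27me3 peaks, the highest standing of any H3K27me3 peak over the family. The other peaks were 2.55 and 0.977 kb wide with folds of 1.87 and 1.89. H3K27me3 peaks of 10 kb or more were found at Tfap2d, Tfap2e and 13.9% of all protein-coding genes.

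The nearest protein-coding genes on both sides of Tfap2e carried the active marks. The proteasome subunit gene Psmb2, 6.29 kb downstream, and Ncdn, 7.48 kb upstream, carried H3K4me3 and H3K27ac without H3K27me3. The H3K4me3 folds there were 59.2 at Psmb2 and 43.8 at Ncdn. The H3K4me3 peak at Ncdn, which also reached AU040320, began 15.5 kb upstream of Tfap2e, and that at Psmb2 began 37.1 kb downstream. Further downstream H3K27me3 lay again, in peaks of 41.4 kb (fold 2.81) and 12.7 kb (fold 2.85) that were 41.9 and 84.8 kb from Tfap2e.

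Tfap2d and Tfap2b are neighbours on chromosome 1 in the same orientation, 35.0 kb apart, and the marks changed between them. Beyond the downstream end of Tfap2d, 5 H3K27me3 peaks of 1.44 to 5.72 kb followed, with folds of 1.72 to 2.13. The last of them ended 5.00 kb before the H3K4me3 peak of Tfap2b and 8.35 kb before the gene itself. No H3K27me3 peak then lay within 69.9 kb, and the next was 31.6 kb downstream of Tfap2b, 1.28 kb wide with a fold of 1.58. No H3K4me3 peak lay between Tfap2d and the broad Tfap2b peak, and the nearest one upstream of Tfap2d was 1044 kb away.

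Within 100 kb of the AP-2 genes lay 22 different H3K27ac peaks, and 3 of them, at and beside Tfap2b, also fell into the window of Tfap2d. Per gene the number was 7 at Tfap2a, 3 at Tfap2b, 8 at Tfap2c, 4 at Tfap2d and 3 at Tfap2e, beside a median of 9 over all protein-coding genes (interquartile range 3 to 14). None of the 5 thus had more peaks than the median gene, and 87.3% of protein-coding genes had at least 1. By length, H3K27ac covered 26.98 kb around Tfap2a, 24.7 kb around Tfap2b, 18.1 kb around Tfap2c, 25.7 kb around Tfap2d and 4.26 kb around Tfap2e, beside a median of 14.5 kb. The length around Tfap2d came almost all from Tfap2b.

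Among the H3K27ac peaks that overlapped no AP-2 gene, the widest lay near Tfap2c. The H3K27ac peak with the highest fold within 100 kb of any AP-2 gene lay 81.1 kb from Tfap2c on its higher side (chr2:172639718-172645888), was 6.17 kb wide and had a fold of 11.4, higher than 99.7% of the list. Its fold was thus above that of the H3K27ac peak over Tfap2c itself, which was 2.84. It overlapped no annotated gene and held an H3K4me3 peak of 0.862 kb with a fold of 2.29. Peaks of 3.11 and 2.05 kb, with folds of 4.80 and 4.48, lay 25.03 and 29.43 kb from Tfap2c in the long noncoding RNA gene Gm36038. Which gene any of these peaks acts on was not measured.

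Around Tfap2a, 5 H3K27ac peaks lay downstream at 28.9 to 77.3 kb, with folds of 1.82 to 4.15, and 1 lay 11.2 kb upstream with a fold of 3.32. The highest of them, with 4.15, was 2.15 kb wide and 61.9 kb downstream. The upstream peak overlapped an H3K4me3 peak of 0.494 kb. H3K27me3 also lay near Tfap2a, beginning 39.6 kb upstream, with peaks of 11.1 and 13.6 kb and folds of 2.31 and 2.29, and 1 peak of 2.62 kb lay 8.34 kb downstream. Around Tfap2e the 3 H3K27ac peaks all reached other protein-coding genes, namely Psmb2, Ncdn and AU040320. Their folds were 5.52 at Psmb2, 7.32 at the peak that reached Ncdn and AU040320, and 1.87 at AU040320 alone. Tfap2d had 1 H3K27ac peak other than those of Tfap2b, 6.06 kb upstream, 0.963 kb wide and with a fold of 1.90. Its −log10 q was 1.46, and it lay inside an H3K27me3 peak of 1.82 kb with a fold of 1.87.

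**Figure D4:**
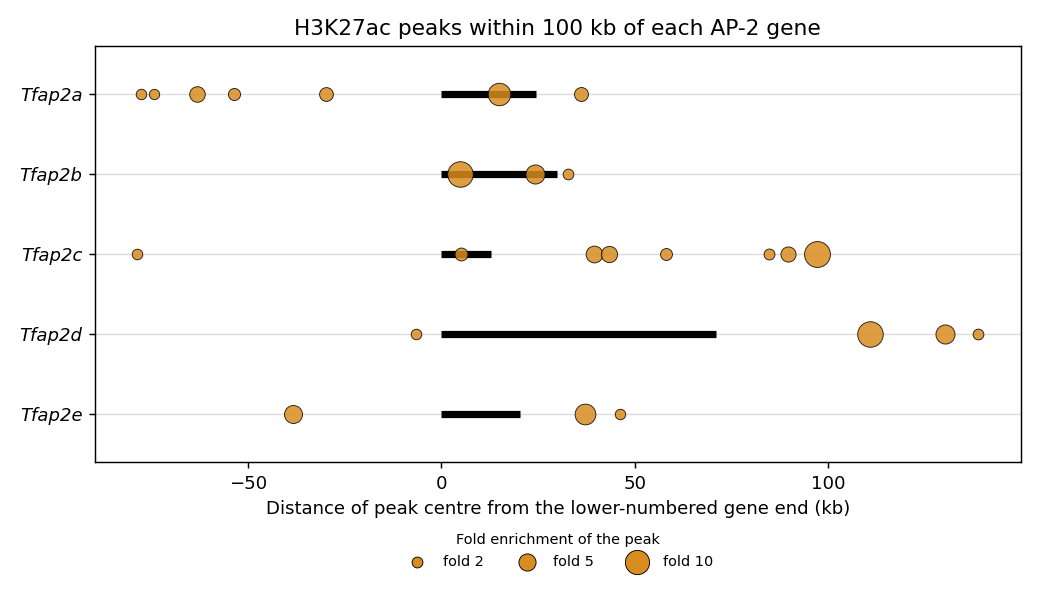
H3K27ac peaks within 100 kb of each AP-2 gene, at the distance of their centres from the lower gene end in kb, with black bars for the genes and circle area in proportion to fold enrichment. The largest circles lie over Tfap2a (8.62) and Tfap2b (11.1), which the Tfap2d row shows again, and 81.1 kb beyond Tfap2c (11.4).

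No HEB site lay within 100 kb of any AP-2 gene, so none of the 22 H3K27ac peaks in these windows could hold one. A site in that window was found at 12.0% of protein-coding genes, a share that would correspond to 0.598 of 5 genes, so a count of 0 does not set the family apart. The nearest site to Tfap2e was 414.3 kb downstream, in a region with H3K4me3 and H3K27ac. The nearest to Tfap2c was 793.5 kb away, and those nearest to Tfap2d, Tfap2b and Tfap2a were 2496, 2598 and 4131 kb away.

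Other transcription factor families are set beside AP-2 to show how such states fall elsewhere, as counts without a test. Both active marks without H3K27me3 lay at 2 of 5 AP-2 genes, 1 of 6 GATA genes, 3 of 4 nuclear factor I genes, 7 of 7 AP-1 genes and 0 of 3 grainyhead-like genes. H3K27me3 alone lay at 2 of 5 AP-2 genes and 3 of 6 GATA genes, and at none of the nuclear factor I, AP-1 and grainyhead-like genes. Of all protein-coding genes, 44.7% had both active marks without H3K27me3, 17.9% had H3K27me3 alone and 11.5% had all 3 marks. In the GATA family the active marks without H3K27me3 were at Gata3, with H3K4me3 of 21.7 kb and H3K27ac of 30.6 kb, while Gata1, Gata4 and Gata5, factors of blood, heart and gut, had H3K27me3 alone, with peaks of up to 51.2 kb at Gata4. The grainyhead-like genes, epithelial regulators, all carried 3 marks, with H3K4me3 peaks of up to 1.75 to 3.61 kb per gene and H3K27me3 peaks of up to 0.615 kb at Grhl1, 11.9 kb at Grhl2 and 5.78 kb at Grhl3.

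**Figure D5:**
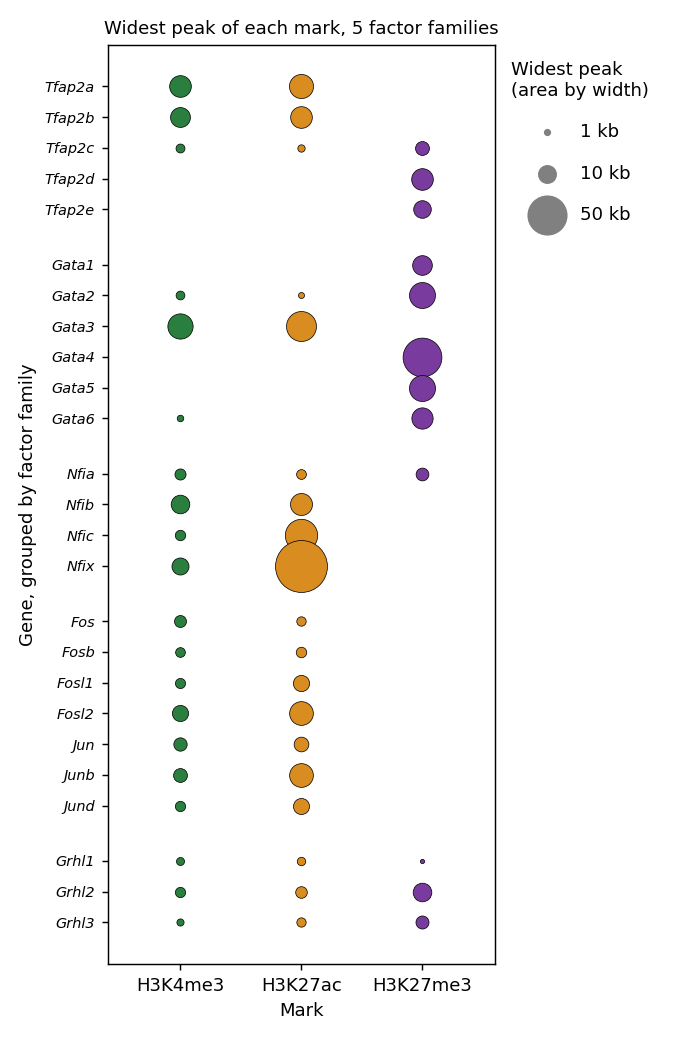
Widest peak of each mark over each gene and 1 kb beyond its ends in 5 transcription factor families, AP-2 at the top, with circle area in proportion to peak width in kb. Tfap2a and Tfap2b have large H3K4me3 and H3K27ac circles, as has Gata3, and Tfap2d and Tfap2e have H3K27me3 circles only, as have Gata1, Gata4 and Gata5.

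Of 10 genes for AP-2 cofactors and modifiers, all 10 carried H3K4me3, 9 carried H3K27ac and 5 carried H3K27me3, beside 61.2%, 63.2% and 37.5% of all protein-coding genes. Cited2, a coactivator that joins AP-2 to the acetyltransferases CBP and p300, had H3K4me3 of 5.25 kb and H3K27ac of 6.94 kb without H3K27me3. The genes of these acetyltransferases, Crebbp and Ep300, also had both active marks without H3K27me3. Kctd15, which encodes an inhibitor of AP-2, had H3K4me3 of 3.74 kb and H3K27ac of 2.94 kb and no H3K27me3, while Kctd1, its relative, had all 3 marks. Wwox, whose product binds AP-2 proteins, had all 3 marks, with H3K27me3 peaks of up to 0.318 kb. Cited1 had no H3K27ac peak and had an H3K27me3 peak of 7.34 kb.

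Of 18 genes reported as AP-2 targets, largely from human epithelial and tumour cells, all 18 carried H3K4me3, 17 carried H3K27ac and 8 carried H3K27me3. Both active marks without H3K27me3 lay at 10 of them, beside 44.7% of all protein-coding genes, and all 3 marks at 7, beside 11.5%. HEB sites lay within 100 kb of 4 of them, Krt8, Krt18, Cdh1 and Myc, beside 12.0% of all protein-coding genes. Krt8 and Krt18 shared the same 2 sites, so that 4 different sites lay near these genes. Erbb2 and Egfr, growth factor receptor genes, had both active marks without H3K27me3, with highest H3K4me3 folds of 20.8 and 33.0. The cyclin-dependent kinase inhibitor gene Cdkn1a and the luminal genes Esr1 and Erbb3 had all 3 marks. Their widest H3K27me3 peaks were 2.20 kb at Cdkn1a, 1.66 kb at Esr1 and 4.08 kb at Erbb3. At the other targets with all 3 marks it was 0.328 kb at Krt14, 2.40 kb at Cdh1, 15.3 kb at Igfbp5 and 16.8 kb at Krt5. Kit, a receptor gene of luminal progenitors, was the 1 target without H3K27ac, and H3K27me3 covered 46.6 kb of it. The marks do not show whether AP-2 proteins bind these genes here.

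The protein-coding genes most like Tfap2a, Tfap2b, Tfap2d and Tfap2e were sought by the length covered by each of the 3 marks over the gene and 1 kb beyond its ends, as Euclidean distance over log10 of the covered base pairs plus 1. For Tfap2a these were Hoxb3 (distance 0.0977), Tfap2b (0.109) and Nr2f2 (0.130). For Tfap2b they were Hoxb3 (0.0637), Tfap2a (0.109) and Bcl9l (0.138). Hoxb3 had 14.4 kb under H3K4me3 and 24.1 kb under H3K27ac, beside 16.0 and 19.8 kb at Tfap2a and 12.8 and 22.1 kb at Tfap2b. Tfap2d was nearest to Rxrg, Myh13 and Unc5cl, and Tfap2e to Dhrs2, Stmn4 and Krt90. Many genes have H3K27me3 alone, so the neighbours of Tfap2d and Tfap2e differ from them only in the covered length, 42.3 to 42.4 kb beside 42.5 kb at Tfap2d and 12.6 kb in each gene beside 12.6 kb at Tfap2e.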

How the data were processed

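The labels describe 5 groups of 4 ChIP-seq samples; the peak lists of the 4 antibodies were used, and input was not analysed here. The submitters' processing notes name mm10 and SAMtools. Aligner, peak caller and merging of replicates were not given in the sources used here. Positions alone are held by the deposited HEB list, which is named as a consensus of replicates. In the deposited mark lists (broadPeak layout) the authors give for each peak a fold enrichment, that is a ratio of ChIP over control, a −log10 q-value (the −log10 p-value was not used) and a score, also not used. Read depth is unknown.

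Gene positions and promoters came from RefSeq (GRCm38.p6). A peak counted at an overlap of 1 bp or more with the gene and 1 kb beyond its ends, and percentages over genes refer to 21887 protein-coding genes. Overlaps were computed in Python 3.11.15 with pandas 2.3.3 and NumPy 2.4.6 and tested on simulated data. The members and gene lists were chosen with earlier results of these data known. Named genes were the members, the nearest coding genes, the listed genes, the 3 most similar genes and those at the 5 H3K4me3 peaks next above and below that of Tfap2a in width; a few of these are not reported here. Alternatives changed the threshold on peaks, the windows and the overlap rule.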

Additional observations from a re-analysis of the deposited data

How the results depend on the processing

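The number of AP-2 genes with each mark was 3 for peaks with −log10 q of 5 or more, for windows of 500 or 2500 bp beyond the gene and when at least 50% of a peak had to lie in the window, with the same genes each time. When a peak had to exceed its list's median fold, H3K4me3 was left at 2 genes, Tfap2a and Tfap2b, since the Tfap2c peak had a fold of 10.8 against a median of 12.9. Counted within 1 kb of gene ends only, an alternative added after seeing the data, both active marks were again at Tfap2a and Tfap2b only and Tfap2c kept H3K27me3. With −log10 q of 5 or more, 1 of the 11 H3K27me3 peaks of Tfap2d, 1 of the 3 of Tfap2e and 1 of the 2 H3K4me3 peaks of Tfap2b were left. The 22 H3K27ac peaks within 100 kb became 13 with −log10 q of 5 or more, 14 within 50 kb and 8 within 20 kb, by construction. The HEB count was 0 within 50, 100 and 200 kb and by nearest gene end. The cofactor, target and comparison family lists held 47 different genes. Of these, 22 carried H3K27me3, and 18 did with −log10 q of 5 or more. H3K27ac was at 41 and 40 of them, and H3K4me3 at 44 both times. Counted within 1 kb of gene ends only, H3K4me3 was at 40 of the 47, H3K27ac at 35 and H3K27me3 at 18. Tfap2a ranked 4 by H3K4me3 width and 5 when peaks under 1 kb apart were joined, and Tfap2b ranked 7 and 10. By summed H3K4me3 length over the gene Tfap2a ranked 6 and Tfap2b 22 among protein-coding genes. No paired analysis was possible because the lists carry no column per replicate, and for the same reason no replicate could be left out. Depth is unknown and limits what a missing peak shows: it was not called at this depth.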

Other observations

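The protein-coding genes next to the AP-2 genes lay in mixed states. Gcnt2, a glycosyltransferase gene 121.5 kb upstream of Tfap2a, carried all 3 marks, with H3K4me3 of 4.84 kb, H3K27ac of 8.93 kb and an H3K27me3 peak of 0.252 kb. Ofcc1, 425.8 kb downstream of Tfap2a, had H3K27ac of 0.618 kb and H3K27me3 of 0.283 kb without H3K4me3. Bmp7, a growth factor gene 309.4 kb from Tfap2c on its higher side, carried all 3 marks, with H3K4me3 of 1.94 kb, H3K27ac of 0.592 kb and H3K27me3 of 6.60 kb, and Fam209, 71.4 kb away on the other side, carried none. Pkhd1, 818.9 kb downstream of Tfap2b, had H3K27ac of 3.42 kb and H3K27me3 of 17.0 kb, and Defb41, 837.9 kb upstream of Tfap2d, carried no mark.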
